A study of Mus musculus with 57 samples.

Results

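ATP-binding cassette (ABC) transporters were followed across a mouse study of colitis-driven colon tumors. The members were all genes with a symbol made of Abc, a subfamily letter from a to g, a number and at most 1 further letter, and with a probe set that carries no other symbol. The rule gave 48 of the 22180 genes measured, with 16 in subfamily ABCA, 9 in ABCB, 10 in ABCC, 3 in ABCD, 1 in ABCE, 3 in ABCF and 6 in ABCG. Each member had 1 probe set on the array.

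RNA came from the distal colon of C57BL/6 mice aged 18 to 24 weeks, and the treatment protocol names females. Mice were either INSRfl/fl littermates (fl/fl), whose insulin receptor gene Insr is flanked by loxP sites, or villin-CRE-INSR-/- mice (knockout), in which Cre driven by the villin promoter removes Insr in the intestinal epithelium while other cells of the tissue keep it. Of 57 arrays, 10 held colon of untreated fl/fl mice and 10 that of untreated knockouts, 10 and 10 held colon of mice given AOM+DSS, and 8 and 9 held tumors of such mice. AOM, a carcinogen, was injected at 7.4 mg/kg, DSS, which injures the epithelium, was given at 3% for 7 days in week 2, and tissue was taken in week 5. The labels call that 3 weeks from the end of DSS, a span that the weeks named do not fix to the day. They call the samples biological replicates and do not say which tumor and colon samples share a mouse.

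ABC proteins bind and split ATP through a conserved cassette, and most use it to carry lipids, bile salts, drugs or conjugated metabolites across a membrane. In the gut, members on the luminal face of epithelial cells return drugs and toxins to the lumen, others hand conjugates to the blood, and sterol exporters set how much cholesterol a cell keeps. The ABCE and ABCF proteins keep the cassette but have no membrane part and work on ribosomes and translation.

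Levels are log2 array values, and changes are differences of group means on that scale ± SE from a limma model of all 57 arrays. A gene passed the threshold when its p, adjusted over 22180 genes, was under 0.05. A probe set's level depends on its own probes, so levels are compared between groups for 1 gene and not between genes.

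Upstream sequences of 4 loci are shown because the results turn on them: the closely related neighbours Abcb1a and Abcb1b, which passed in different comparisons, Abcc2, whose rise in tumors was the largest of the family, and the stretch between Abcg5 and Abcg8, which are transcribed away from each other from the starts used here. RefSeq gives Abcg8 a further start that lies inside Abcg5, so the gene records overlap. They are from RefSeq on GRCm38.p6, plus strand, 5′ to 3′: the 250 bases before the start at chr5:8566841-8567090 for Abcb1a, chr5:8797897-8798146 for Abcb1b and chr19:43782058-43782307 for Abcc2, and the 109 bases between the Abcg5 start and the Abcg8 start that lies outside Abcg5 at chr17:84683012-84683120 for Abcg5 and Abcg8. Capitals mark matches on either strand to 5 motifs, none of which overlap in these stretches. They were GGGCGG, bound by Sp factors, CCAAT, bound by NF-Y, TATAAA, near which polymerase can start, AGGTCA, the core of many nuclear receptor sites, and GATAA, bound by GATA factors.
Abcb1a: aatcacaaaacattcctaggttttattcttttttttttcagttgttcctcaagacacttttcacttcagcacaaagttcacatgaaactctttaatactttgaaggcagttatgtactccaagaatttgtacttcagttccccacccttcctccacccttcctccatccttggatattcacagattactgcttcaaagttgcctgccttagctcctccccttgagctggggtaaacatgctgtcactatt
Abcb1b: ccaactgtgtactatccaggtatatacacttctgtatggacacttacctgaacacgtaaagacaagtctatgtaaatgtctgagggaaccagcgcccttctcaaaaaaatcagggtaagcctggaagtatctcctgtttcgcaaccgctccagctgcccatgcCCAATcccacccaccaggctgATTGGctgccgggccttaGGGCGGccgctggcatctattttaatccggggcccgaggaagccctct
Abcc2: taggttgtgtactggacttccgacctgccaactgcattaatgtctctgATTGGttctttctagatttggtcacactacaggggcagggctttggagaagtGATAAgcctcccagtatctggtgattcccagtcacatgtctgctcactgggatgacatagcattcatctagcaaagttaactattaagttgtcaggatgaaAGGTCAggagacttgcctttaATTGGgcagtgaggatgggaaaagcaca
Abcg5 and Abcg8, between starts: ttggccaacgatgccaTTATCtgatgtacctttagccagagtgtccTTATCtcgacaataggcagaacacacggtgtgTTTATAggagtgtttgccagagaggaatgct
The Abcb1a stretch held none of the 5 motifs. The Abcb1b stretch held 1 GGGCGG and 2 CCAAT, and the Abcc2 stretch held 2 CCAAT, 1 AGGTCA and 1 GATAA. The stretch between Abcg5 and Abcg8 held 1 TATAAA and 2 GATAA, all on the opposite strand. Among 32851 windows of 250 bases before RefSeq starts, 32.7% held GGGCGG, 33.8% CCAAT, 12.4% TATAAA, 14% AGGTCA and 22.6% GATAA. Over 109 bases, 5.9% held TATAAA and 9.4% GATAA. A match is a description of the letters and not a measured site.

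Insr checked the genotype labels. Its level was 7.74 to 8.29 in knockout and 8.70 to 9.16 in fl/fl untreated colon, and 7.52 to 7.96 against 8.28 to 8.94 after AOM+DSS, with no overlap. In tumors the ranges overlapped, at 7.17 to 8.35 in knockout and 7.70 to 8.50 in fl/fl, and knockout replicate 8, at 8.35, went against its label: the other knockout tumors reached 7.79 at most, and the fl/fl tumor median was 8.20. The Insr differences were -0.94 ± 0.098, -0.84 ± 0.098 and -0.65 ± 0.11 (adjusted p = 6.71e-09, 2.32e-07 and 0.00234), and the tumor difference was -0.76 ± 0.094 without knockout tumor replicate 8 (adjusted p = 2.01e-06). The tumor call was lost in a fit of the compared groups alone (adjusted p = 0.9999), and weighting the arrays gave -0.59 (adjusted p = 0.087). Markers of absorptive colonocytes averaged 10.78 to 11.99 over 12 genes in the colon samples and 8.87 to 10.80 in tumors. Of the arrays, 5 stood apart for ABC genes or for Insr: knockout untreated replicate 2, fl/fl AOM+DSS replicate 7, knockout AOM+DSS replicate 10, fl/fl tumor replicate 7 and knockout tumor replicate 8. They were picked after their values had been seen, and calls that they decide are given with and without them.

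More of the family passed the threshold in tumors than after AOM+DSS alone. In fl/fl mice, 13 of 48 members passed between AOM+DSS and untreated colon, where 22.7% of all genes did, with 10 members higher (12.2% of all genes) and 3 lower (10.5%). In knockout mice 18 members passed, against 30.2% of all genes, with 13 higher (16% of all genes) and 5 lower (14.2%). Between tumors and AOM+DSS colon 29 members passed in fl/fl mice, against 41.2% of all genes, with 10 higher (21% of all genes) and 19 lower (20.2%). In knockout mice 30 members passed there, against 42.9%, with 12 higher (21.5%) and 18 lower (21.4%). The values of both groups did not overlap for 2 members after AOM+DSS in fl/fl mice (1.06% of all genes) and for 4 in knockout mice (4.74%), and between tumors and AOM+DSS colon for 14 (12%) and 16 (14.7%). The median change in tumors was -0.10 over the members and 0.02 over all genes in fl/fl mice, and -0.08 and 0.0020 in knockout mice. After AOM+DSS it was -0.02 over the members and -0.04 over all genes in fl/fl mice, and -0.01 and -0.04 in knockout mice. The split after AOM+DSS in fl/fl mice depended on array scaling: with arrays shifted to the same median over the genes, 8 members were higher and 7 lower, while the calls over all genes went from 2715 higher and 2329 lower to 2165 and 3839. In knockout mice that scaling gave 10 higher and 7 lower members.

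The tumor and AOM+DSS comparisons share the AOM+DSS arrays, whereas the fl/fl and knockout comparisons share none. After AOM+DSS, 9 members rose in both genotypes (Abca1, Abca9, Abca13, Abcb1b, Abcc5, Abcf1, Abcf2, Abcg1 and Abcg3; 10.5% of all genes did) and 2 fell in both (Abcb6 and Abcc10; 6.08%). In tumors 9 rose in both (Abca1, Abca2, Abcc1, Abcc2, Abcc4, Abcc5, Abce1, Abcf2 and Abcg1; 17.2% of all genes did) and 16 fell in both, against 17%. No member passed in opposite directions in the 2 genotypes. Over the 4 comparisons 7 members passed in all, where 8.26% of all genes did, and 11 in none, where 37.4% did. Some calls after AOM+DSS depended on array scaling. The fl/fl fall of Abcc10 was lost with arrays shifted to the same median over all probe sets (-0.24, adjusted p = 0.0635). Abcc5 lost both calls when the arrays were quantile normalized again (adjusted p = 0.0844 in fl/fl and 0.144 in knockout mice). Abcf2 lost its fl/fl call there (adjusted p = 0.122). Abcf1 lost both calls with arrays shifted to the same median over the genes (adjusted p = 0.152 and 0.0686). Abcc5 and Abcf2 are among the 7. At least 2-fold changes past the threshold were seen for 6 members in fl/fl tumors and 7 in knockout tumors, against 5.05% and 4.98% of all genes, and after AOM+DSS for none in fl/fl mice (1.01% of all genes) and for Abcb1b alone in knockout mice (1.7%).

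**Figure D1:**
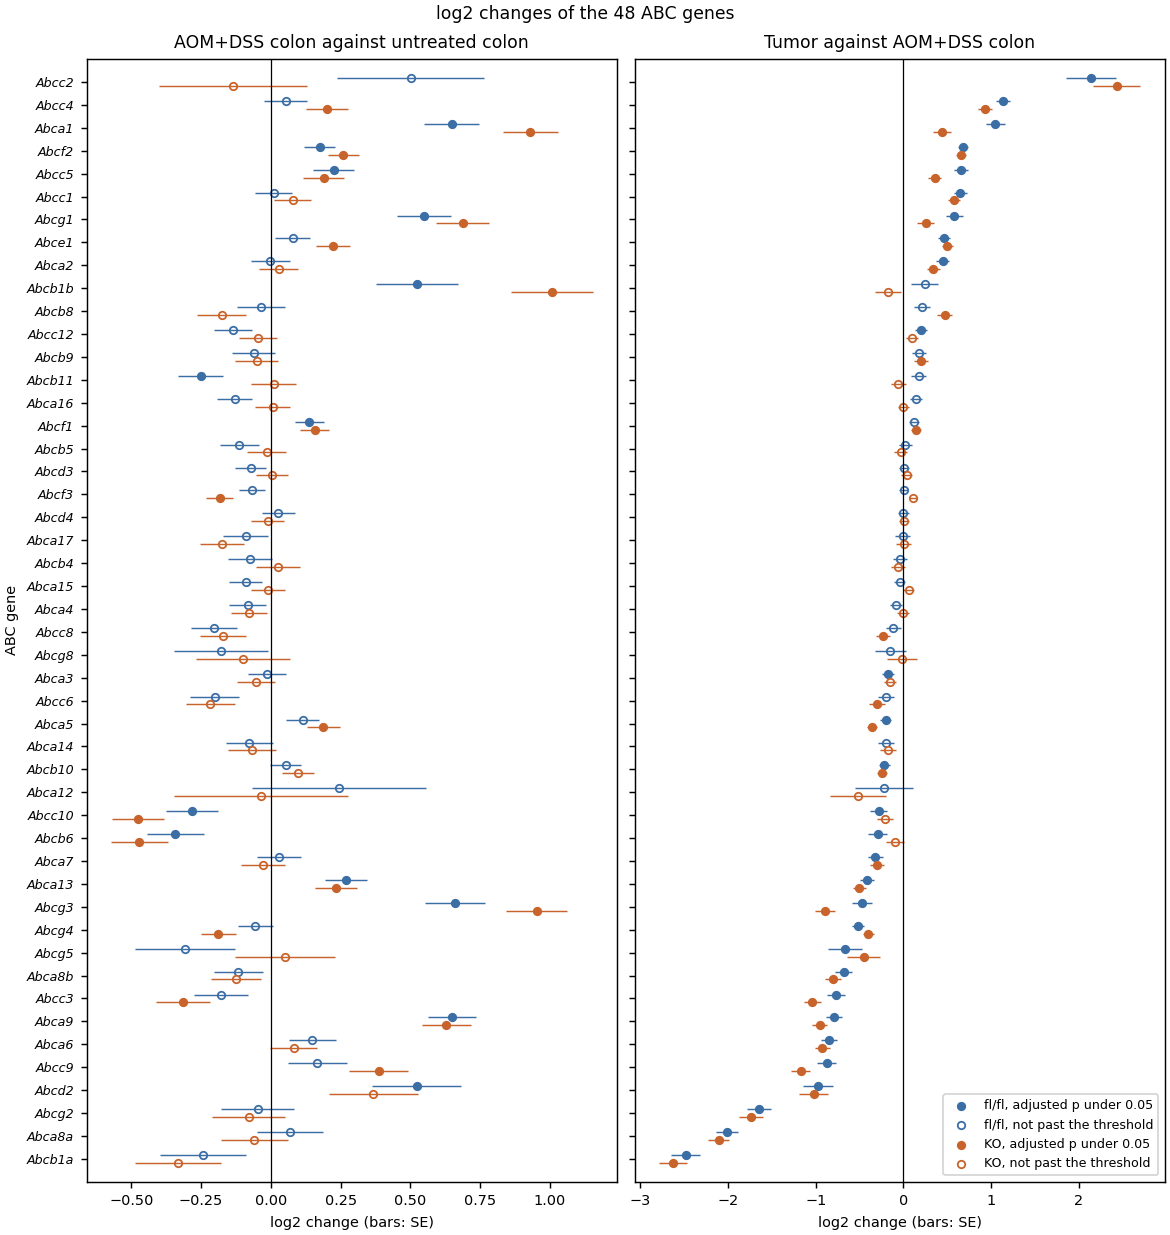
Changes of the 48 ABC genes on the log2 scale, AOM+DSS against untreated colon on the left and tumor against AOM+DSS colon on the right, with SE bars. Genes are in order of their fl/fl tumor change. Filled points passed the threshold, blue for fl/fl and orange for knockout. The changes in tumors run from -2.63 for Abcb1a to 2.43 for Abcc2, and those after AOM+DSS stay within -0.48 and 1.01.

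Levels of tissue markers differed between groups, and those of smooth muscle did so in the tumor comparisons of both genotypes. All 12 smooth muscle markers fell in tumors of both genotypes, and their mean per array was 9.15 to 10.17 in fl/fl and 8.68 to 10.16 in knockout tumors against 10.82 to 11.53 and 10.68 to 11.34 in AOM+DSS colon. With that mean as a covariate 10 members passed in fl/fl tumors and 11 in knockout tumors, while the calls over all genes went from 9143 to 1996 and from 9511 to 2120. The members that passed then were Abca1, Abca8a, Abca9, Abcb1a, Abcc1, Abcc2, Abcc4, Abcc5, Abcc12 and Abcg2 in fl/fl tumors. In knockout tumors they were Abca6, Abca8a, Abca9, Abca13, Abcb1a, Abcc1, Abcc2, Abcc3, Abcc4, Abcg2 and Abcg3, and the other members' tumor calls were lost with this covariate. The mean did not overlap between tumors and AOM+DSS colon, so it follows tumor status closely and widens the SE. Some lost calls kept their size, such as Abcb8 in knockout (0.44 ± 0.19) and Abcb10 in fl/fl tumors (-0.27 ± 0.12). Others shrank, such as Abce1 in fl/fl tumors (0.17 ± 0.13). A lost call therefore does not measure the part of smooth muscle, which was not tested. In tissue pieces, fewer cells of a type and less RNA per cell cannot be told apart. Squamous epithelium markers, 13 genes, averaged from 5.48 to 9.69 over the AOM+DSS colon arrays, against 5.43 to 9.03 in untreated colon, and with their mean as a covariate 6 members passed after AOM+DSS in fl/fl mice, all higher (Abca1, Abca9, Abca13, Abcf2, Abcg1 and Abcg3), and 12 in knockout mice.

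Drug and conjugate exporters, 12 members, held both the largest rise and the largest fall of the family in tumors. In fl/fl tumors 5 rose and 5 fell, and in knockout tumors 4 rose and 5 fell. Of all genes 21% rose and 20.2% fell in fl/fl tumors, and 21.5% and 21.4% in knockout tumors. The median change of the 12 members was 0.0034 and -0.19.

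Abcb1a, a P-glycoprotein that pumps drugs and toxins from the epithelium back to the lumen, fell most. Its level in untreated colon was 11.87 to 12.25 (median 12.11) in fl/fl and 11.82 to 12.35 (median 12.12) in knockout mice, and after AOM+DSS it was 11.56 to 12.28 (median 11.82) and 11.43 to 12.12 (median 11.82). In tumors it was 8.45 to 10.51 (median 9.33) in fl/fl and 8.36 to 9.66 (median 9.37) in knockout mice. Every tumor lay below every colon sample of its genotype. The change from AOM+DSS colon to tumor was -2.48 ± 0.16 in fl/fl (adjusted p = 2.91e-19, 5.58-fold lower) and -2.63 ± 0.16 in knockout mice (adjusted p = 7.21e-21, 6.19-fold lower). The changes after AOM+DSS, -0.24 ± 0.15 and -0.33 ± 0.15, did not pass (adjusted p = 0.255 and 0.0993). With the smooth muscle mean as a covariate the tumor changes were -1.85 and -2.02 and still passed. Of 12 colonocyte markers, 10 also fell and 1 rose in tumors of each genotype, with median changes of -1.11 and -1.31, and their part in the falls of Abcb1a, Abcg2 and Abcc3 was not tested.

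Abcb1b, the neighbouring gene for a second P-glycoprotein, went another way. Its level was 5.35 to 6.08 (median 5.76) in fl/fl and 5.38 to 6.11 (median 5.64) in knockout untreated colon, and 5.56 to 7.00 (median 6.26) and 6.16 to 7.04 (median 6.76) after AOM+DSS. The knockout ranges did not overlap and the fl/fl ranges did. It rose by 0.52 ± 0.15 in fl/fl (adjusted p = 0.00657) and by 1.01 ± 0.15 in knockout mice (adjusted p = 2.07e-07, 2.01-fold). Tumors lay at 5.90 to 7.13 and 5.83 to 7.31, with changes from AOM+DSS colon of 0.24 ± 0.16 and -0.18 ± 0.15 that did not pass. The pair shares much of its coding sequence, and array probes can read both genes. With the squamous mean as a covariate the fl/fl rise was 0.40 (adjusted p = 0.0719).

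Abcg2, the breast cancer resistance protein, a luminal exporter of drugs, porphyrins and urate, had a level of 8.57 to 9.29 (median 8.81) in fl/fl and 8.44 to 9.12 (median 8.81) in knockout AOM+DSS colon, close to the 8.66 to 9.15 and 8.43 to 9.13 of untreated colon. Tumors lay lower without overlap, at 6.62 to 7.90 (median 7.15) and 6.19 to 7.79 (median 7.14). It fell by 1.65 ± 0.14 in fl/fl (adjusted p = 3.99e-15, 3.14-fold lower) and by 1.74 ± 0.13 in knockout tumors (adjusted p = 1.58e-16, 3.34-fold lower). The smooth muscle covariate left falls of 1.43 and 1.53 that passed.

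Abcg3, a rodent relative of Abcg2, rose after AOM+DSS and was lower again in tumors. Its levels were 5.97 to 6.53 and 5.89 to 6.67 in untreated fl/fl and knockout colon, 6.58 to 7.63 and 6.96 to 7.47 after AOM+DSS, and 6.04 to 6.91 and 5.87 to 6.62 in tumors. AOM+DSS colon lay above untreated colon without overlap in both genotypes, with rises of 0.66 ± 0.11 (adjusted p = 7.74e-06) and 0.95 ± 0.11 (adjusted p = 6.23e-10). Tumors fell by 0.48 ± 0.12 in fl/fl (adjusted p = 0.000489) and by 0.89 ± 0.11 in knockout mice (adjusted p = 9.71e-10).

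Abcc3, which passes conjugates and bile salts to the blood side of the cell, had a level of 9.57 to 10.10 (median 9.90) in fl/fl and 9.64 to 10.15 (median 9.80) in knockout AOM+DSS colon and of 8.78 to 9.74 (median 9.04) and 8.28 to 9.23 (median 8.95) in tumors. The knockout ranges did not overlap, and in fl/fl tumor replicate 7, at 9.74, reached into the colon range. It fell by 0.77 ± 0.10 (adjusted p = 5.33e-09) and by 1.04 ± 0.099 (adjusted p = 2.56e-13). After AOM+DSS it fell by 0.32 ± 0.097 in knockout mice (adjusted p = 0.00893), and its fl/fl change was -0.18 ± 0.097 (adjusted p = 0.174). Abcc3 lost its fl/fl tumor call with the smooth muscle covariate (-0.46, adjusted p = 0.179).

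Abcc2, the exporter of glucuronide, sulfate and glutathione conjugates on luminal membranes, rose most in tumors. In untreated colon its level was 5.97 to 6.99 (median 6.46) in fl/fl and 6.21 to 7.70 (median 6.79) in knockout mice. After AOM+DSS it was 6.47 to 9.16 (median 6.74) and 5.85 to 8.82 (median 6.50), and in tumors 7.57 to 9.70 (median 9.26) and 8.38 to 9.63 (median 9.17). Of the AOM+DSS arrays, fl/fl replicate 7 and knockout replicate 10 alone lay above 7.29, and fl/fl tumor replicate 7 alone lay below 8.38. The rise was 2.14 ± 0.28 in fl/fl (adjusted p = 3.88e-09, 4.40-fold) and 2.43 ± 0.27 in knockout mice (adjusted p = 3.72e-11, 5.39-fold). Without the 5 arrays that stood apart it was 2.60 ± 0.17 and 2.62 ± 0.16. The changes after AOM+DSS were 0.50 ± 0.26 and -0.14 ± 0.26 and did not pass. Without those arrays Abcc2 was at 0.26 ± 0.15 in fl/fl (adjusted p = 0.241) and fell by 0.43 ± 0.16 in knockout mice (adjusted p = 0.0373).

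Abcc4, an exporter of cyclic nucleotides and prostaglandins, lay at 7.79 to 8.30 (median 8.00) in fl/fl and 8.04 to 8.41 (median 8.18) in knockout AOM+DSS colon and at 8.77 to 9.49 (median 9.16) and 8.85 to 9.38 (median 9.15) in tumors, with no overlap. It rose by 1.14 ± 0.081 (adjusted p = 6.52e-18, 2.20-fold) and 0.93 ± 0.078 (adjusted p = 3.56e-15, 1.90-fold). Its rise of 0.20 ± 0.076 after AOM+DSS in knockout mice (adjusted p = 0.0382) did not pass without knockout untreated replicate 2 (0.18, adjusted p = 0.0827).

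The other conjugate exporters changed less. Abcc1, which exports glutathione conjugates and leukotriene C4, lay at 8.87 to 9.23 and 8.96 to 9.37 in tumors, above all AOM+DSS colon samples (8.14 to 8.59 and 8.30 to 8.63), and rose by 0.65 ± 0.070 (adjusted p = 1.56e-11) and 0.58 ± 0.068 (adjusted p = 1.54e-10). Abcc5, another cyclic nucleotide exporter, rose after AOM+DSS by 0.23 and 0.19 and again in tumors by 0.66 ± 0.077 and 0.35 ± 0.075. Its calls after AOM+DSS were lost in both genotypes when the arrays were quantile normalized again. Abcc10, which can carry lipophilic drugs, fell after AOM+DSS by 0.28 ± 0.092 and 0.48 ± 0.092 and in fl/fl tumors by 0.28 ± 0.098. With the squamous covariate its fl/fl call after AOM+DSS was lost (-0.23, adjusted p = 0.119). Abcc6, a liver and kidney member tied to release of ATP, fell in knockout tumors by 0.30 ± 0.089, and Abcc12, whose substrates are little known, rose in fl/fl tumors by 0.20 ± 0.071.

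**Figure D2:**
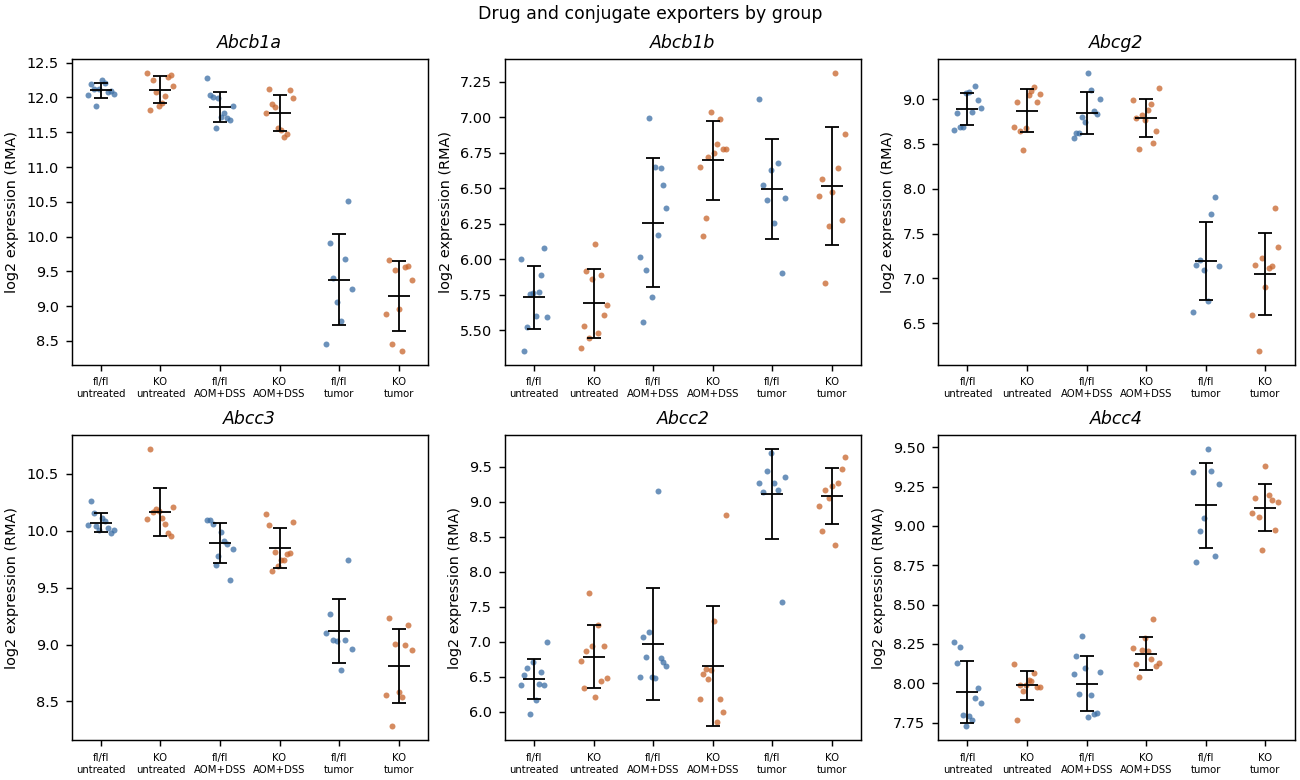
Log2 levels of 6 drug and conjugate exporters on each array by group, with 1 point per array and mean ± SD bars, each panel on its own axis. Abcb1a, Abcg2 and Abcc3 are low in tumors, Abcc2 and Abcc4 are high there, and Abcb1b is higher after AOM+DSS. Single high arrays stand out for Abcc2 after AOM+DSS, at 9.16 in fl/fl and 8.82 in knockout mice.

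Of the 8 sterol, phospholipid and bile salt exporters, 2 rose and 1 fell after AOM+DSS in each genotype, and in tumors 2 rose and 3 fell in each. The shares of all genes that passed were 22.7% in fl/fl and 30.2% in knockout mice after AOM+DSS, and 41.2% and 42.9% in tumors. Abca1, which loads cholesterol and phospholipid onto apolipoprotein A-I, had levels of 7.48 to 8.02 (median 7.74) in fl/fl and 7.64 to 8.37 (median 7.94) in knockout untreated colon, 7.89 to 8.81 (median 8.40) and 8.61 to 9.30 (median 8.88) after AOM+DSS, and 9.05 to 9.82 (median 9.36) and 9.10 to 9.52 (median 9.40) in tumors. The fl/fl tumors lay above all fl/fl colon samples, and knockout AOM+DSS colon lay above knockout untreated colon. It rose after AOM+DSS by 0.65 ± 0.099 (adjusted p = 1.96e-06) and 0.93 ± 0.099 (adjusted p = 1.06e-10), and in tumors by 1.05 ± 0.10 (adjusted p = 1.3e-12) and 0.44 ± 0.10 (adjusted p = 0.00029). The knockout tumor rise was 0.19 with the smooth muscle covariate (adjusted p = 0.679).

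Abcg1, which moves cellular sterols to high-density lipoprotein, lay at 6.71 to 7.34 and 6.71 to 7.63 in untreated colon, 7.27 to 7.96 and 7.67 to 8.27 after AOM+DSS, and 7.86 to 8.61 and 7.89 to 8.50 in tumors. Untreated and AOM+DSS ranges did not overlap in knockout mice and overlapped in fl/fl mice. It rose after AOM+DSS by 0.55 ± 0.095 (adjusted p = 1.96e-05) and 0.69 ± 0.095 (adjusted p = 7.42e-08), and in tumors by 0.58 ± 0.10 (adjusted p = 2.74e-06) and 0.25 ± 0.098 (adjusted p = 0.0311). The knockout tumor call was lost without knockout AOM+DSS replicate 10 (0.23, adjusted p = 0.058), and with the smooth muscle covariate its sign turned (-0.0050, adjusted p = 0.994). The fl/fl tumor call was lost with that covariate too (0.31, adjusted p = 0.426). All 11 macrophage markers measured also rose after AOM+DSS in both genotypes, and their mean per array went from 8.34 to 8.96 in fl/fl and 8.42 to 9.16 in knockout untreated colon to 9.06 to 9.81 and 9.35 to 9.88 after AOM+DSS. From AOM+DSS colon to tumor, 2 of these markers rose and 2 fell in fl/fl mice, with a median change of 0.0089. In knockout mice 2 rose and 5 fell there, with a median of -0.24. The part of the macrophage markers in the rises of Abca1 and Abcg1 was not tested.

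Abcg5 and Abcg8 form a heterodimer that returns plant sterols and cholesterol to the lumen. Abcg5 lay at 7.40 to 8.91 (median 7.94) in fl/fl and 7.23 to 8.39 (median 7.56) in knockout AOM+DSS colon, and at 6.70 to 8.00 (median 7.36) and 6.73 to 7.75 (median 7.21) in tumors, with overlap. It fell by 0.67 ± 0.19 in fl/fl (adjusted p = 0.00311) and by 0.45 ± 0.18 in knockout tumors (adjusted p = 0.0407), where the call was lost without knockout AOM+DSS replicate 10 (-0.37, adjusted p = 0.104). Abcg8, at 6.80 to 8.31 and 7.05 to 7.94 in tumors, changed by -0.15 ± 0.18 and -0.02 ± 0.17 and did not pass. Without the 5 arrays both genes of the pair fell after AOM+DSS in fl/fl mice (Abcg5 -0.41 ± 0.13, adjusted p = 0.024, and Abcg8 -0.31 ± 0.11, adjusted p = 0.0375), which neither did with them (-0.31 ± 0.18 and -0.18 ± 0.17). Abcg8 also fell in knockout mice then, by 0.34 ± 0.11 (adjusted p = 0.0165). None of these falls passed with fl/fl AOM+DSS replicate 7 alone left out (Abcg5 -0.41, adjusted p = 0.0962, and Abcg8 -0.31, adjusted p = 0.162, in fl/fl mice), or for Abcg8 in knockout mice without knockout AOM+DSS replicate 10 (-0.23, adjusted p = 0.305) or knockout untreated replicate 2 (-0.21, adjusted p = 0.355).

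Of the arrays that stood apart, the AOM+DSS ones also did so for small-intestinal enterocyte transcripts, a list of 12 genes written after the data had been seen. Its mean was 10.04 in fl/fl AOM+DSS replicate 7, where the other arrays of that group reached 7.55 at most, and 9.28 in knockout AOM+DSS replicate 10, where the others reached 8.16. These arrays had the highest level of their group for Abcc2 (9.16 and 8.82), Abcg5 (8.91 and 8.39) and Abcg8 (8.82 and 8.58). Knockout untreated replicate 2 had the lowest Abcg5 and Abcg8 of its group, at 6.14 and 6.49, where the others lay at 7.29 and 7.21 or higher, and its small-intestinal mean of 7.31 lay within its group. All arrays that stood apart had the highest mean of the 12 colonocyte markers in their group. It was 11.99 in knockout untreated replicate 2, where the others reached 11.62 at most. After AOM+DSS it was 11.93 in fl/fl replicate 7 (others 11.78 at most) and 11.60 in knockout replicate 10 (11.58). In tumors it was 10.80 in fl/fl replicate 7 (10.45) and 10.48 in knockout replicate 8 (10.16). The part of tissue position or of colonocyte RNA in these levels was not tested.

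**Figure D3:**
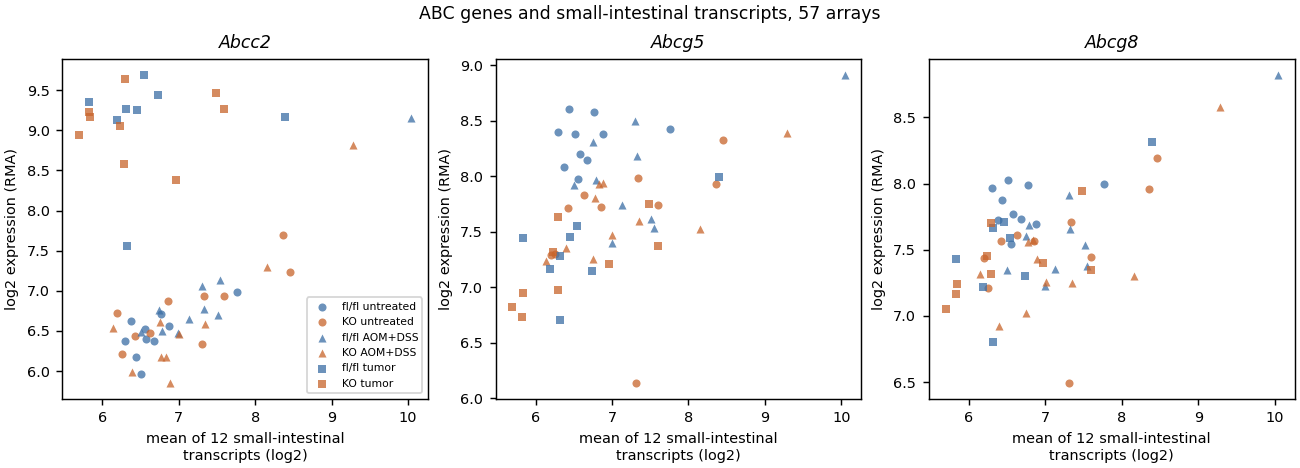
Log2 levels of Abcc2, Abcg5 and Abcg8 on each of the 57 arrays against the mean of 12 small-intestinal transcripts, with circles for untreated colon, triangles for AOM+DSS colon and squares for tumors, blue for fl/fl and orange for knockout. The AOM+DSS arrays at 10.04 and 9.28 on the horizontal axis are the highest of their groups for all 3 genes, while tumors hold high Abcc2 at low values on that axis.

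The other members of this group fell or passed in none of the 4 comparisons. Abca7, a phospholipid exporter tied to phagocytosis, fell in tumors by 0.32 ± 0.084 (adjusted p = 0.00138) and 0.31 ± 0.082 (adjusted p = 0.00147), and Abcg4, a sterol exporter related to Abcg1, fell by 0.52 ± 0.067 (adjusted p = 2.52e-09) and 0.40 ± 0.065 (adjusted p = 5.85e-07). Abcg4 tumors lay at 5.59 to 6.10 and 5.67 to 6.21, below all AOM+DSS colon samples of their genotype (6.19 to 6.59 and 6.26 to 6.58). Abcb11, the bile salt export pump of the liver, had a dim probe set at 3.64 to 4.80 over all arrays, and its fall of 0.25 ± 0.081 after AOM+DSS in fl/fl mice (adjusted p = 0.0193) was lost when only the compared groups were fitted (adjusted p = 0.062). Abcb4, which flips phosphatidylcholine into bile, passed in none of the 4 comparisons.

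**Figure D4:**
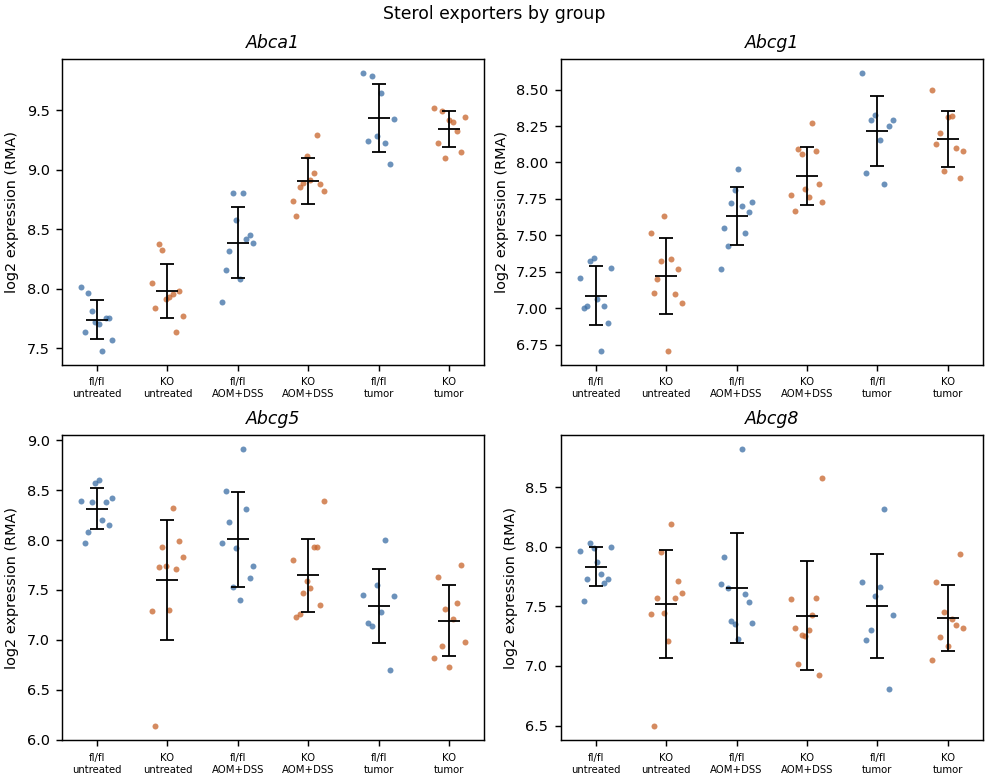
Log2 levels of 4 sterol exporters on each array by group, with 1 point per array and mean ± SD bars, each panel on its own axis. Abca1 and Abcg1 are higher after AOM+DSS and higher again in tumors, whereas Abcg5 and Abcg8 spread widely within groups, with knockout untreated replicate 2 at 6.14 and 6.49.

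Among the 14 other ABCA lipid transporters, 2 rose and none fell after AOM+DSS in fl/fl mice, 3 rose and none fell in knockout mice, and in tumors 1 rose in each genotype while 7 fell in fl/fl and 6 in knockout mice. Of all genes 12.2% and 16% rose after AOM+DSS, and in tumors 21% and 21.5% rose and 20.2% and 21.4% fell. On chromosome 11 of GRCm38.p6 Abca8b, Abca8a, Abca9, Abca6 and Abca5 follow each other with no other protein-coding gene between them. All 5 fell in tumors in both genotypes. Abca8a, whose human relative has been tied to sterol export, had levels of 6.53 to 7.09 (median 6.76) in fl/fl and 6.44 to 6.98 (median 6.66) in knockout AOM+DSS colon, within the span of untreated colon (6.19 to 7.30), and of 4.37 to 5.19 (median 4.83) and 3.96 to 5.15 (median 4.57) in tumors, with no overlap. It fell by 2.01 ± 0.13 (adjusted p = 3.79e-20, 4.02-fold lower) and 2.11 ± 0.12 (adjusted p = 1.28e-21, 4.31-fold lower), and by 1.20 and 1.32 with the smooth muscle covariate, which still passed. Its close copy Abca8b fell by 0.68 ± 0.095 and 0.80 ± 0.092, and probes for the pair may not be separate.

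The neighbours differed after AOM+DSS. Abca9 rose from 6.63 to 6.88 in fl/fl and 6.40 to 7.21 in knockout untreated colon to 7.01 to 7.68 and 7.21 to 7.67, by 0.65 ± 0.087 (adjusted p = 1.52e-07) and 0.63 ± 0.087 (adjusted p = 7.3e-08), and fell in tumors to 6.40 to 6.84 and 6.04 to 6.91, by 0.79 ± 0.092 (adjusted p = 1.44e-10) and 0.96 ± 0.090 (adjusted p = 1.3e-13). Abca6 did not pass after AOM+DSS (0.15 ± 0.084 and 0.08 ± 0.084) and fell in tumors by 0.85 ± 0.089 and 0.92 ± 0.087. Abca5, a lysosomal member, rose after AOM+DSS in knockout mice by 0.19 ± 0.058 and fell in tumors by 0.20 ± 0.062 and 0.36 ± 0.060. Of 10 fibroblast markers, 6 rose in fl/fl and 7 in knockout mice after AOM+DSS, and 8 and 9 fell in tumors. Their mean per array was 9.64 to 10.74 and 10.18 to 10.57 in AOM+DSS colon and 9.24 to 9.94 and 8.80 to 10.07 in tumors, and their part in the changes of these genes was not tested.

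**Figure D5:**
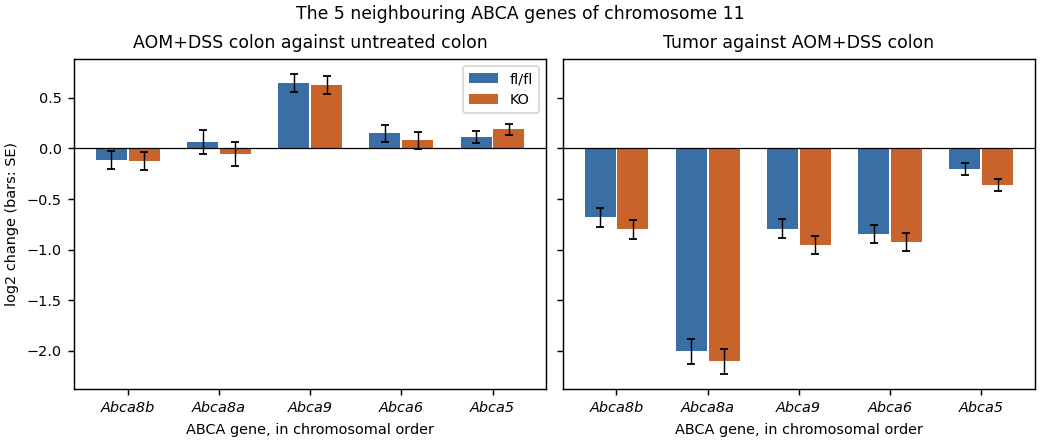
Changes on the log2 scale, with SE bars, of the 5 neighbouring ABCA genes of chromosome 11 in their order on the chromosome, AOM+DSS against untreated colon on the left and tumor against AOM+DSS colon on the right, blue for fl/fl and orange for knockout. After AOM+DSS Abca9 stands out at 0.65 and 0.63, and in tumors all 5 are below 0, Abca8a most at -2.01 and -2.11.

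Elsewhere in the subfamily Abca2, an endosomal lipid transporter, rose in tumors from 6.46 to 6.84 in fl/fl and 6.56 to 7.03 in knockout AOM+DSS colon to 6.69 to 7.45 and 6.86 to 7.31, by 0.45 ± 0.074 (adjusted p = 9.81e-07) and 0.34 ± 0.072 (adjusted p = 7.07e-05). Abca13, the longest member, rose after AOM+DSS by 0.27 ± 0.075 and 0.23 ± 0.075 and fell in tumors by 0.42 ± 0.079 and 0.50 ± 0.077. Abca3, known from lung surfactant, fell in fl/fl tumors by 0.18 ± 0.072 (adjusted p = 0.0441), a call lost without fl/fl tumor replicate 7 (-0.17, adjusted p = 0.0713). Abca12, a ceramide transporter of the skin barrier, passed in no comparison and had wide ranges, from 4.71 to 7.08 in fl/fl and 4.76 to 7.05 in knockout AOM+DSS colon, and 8.50 in knockout untreated replicate 2 where the others lay at 5.57 or lower. The squamous marker mean of that array, 5.83, lay within its group. In fl/fl tumors too the highest arrays differed, replicate 7 for Abca12 and replicate 4 for the squamous mean. In the other groups 1 array was highest for both. It was replicate 1 in fl/fl untreated colon, replicate 8 in fl/fl and 5 in knockout AOM+DSS colon, and replicate 6 in knockout tumors. The part of squamous epithelium in the Abca12 levels was not tested. Abca4, Abca14, Abca15, Abca16 and Abca17 passed in none of the 4 comparisons, and the probes of the neighbours Abca14, Abca15 and Abca16 may read more than 1 of them.

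Abcc9 and Abcc8 are not pumps but regulatory sulfonylurea receptors of ATP-sensitive potassium channels, with the pore made by Kcnj8 or Kcnj11. Abcc9 lay at 9.13 to 9.83 (median 9.47) in fl/fl and 9.38 to 10.18 (median 9.76) in knockout AOM+DSS colon and at 8.28 to 9.02 (median 8.55) and 8.15 to 9.21 (median 8.54) in tumors, with no overlap. It fell by 0.88 ± 0.11 (adjusted p = 2.17e-09) and 1.17 ± 0.11 (adjusted p = 9.7e-14) in tumors and rose by 0.39 ± 0.11 in knockout mice after AOM+DSS (adjusted p = 0.00339). Abcc8 fell in knockout tumors by 0.23 ± 0.084 (adjusted p = 0.0189). Kcnj8 fell in tumors by 0.27 ± 0.093 and 0.36 ± 0.090, and Kcnj11 did not pass. Of 10 endothelium and pericyte markers, which include Kcnj8, 7 fell in fl/fl and 8 in knockout tumors. With the smooth muscle covariate the Abcc9 tumor changes were -0.28 (adjusted p = 0.527) and -0.59 (adjusted p = 0.0557).

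Among the transporters of mitochondria, lysosomes and peroxisomes, Abcd2 had the largest tumor changes. Abcd2, a peroxisomal importer of very long chain fatty acids, lay at 5.53 to 6.86 (median 6.34) in fl/fl and 6.05 to 6.88 (median 6.34) in knockout AOM+DSS colon and at 5.02 to 5.73 (median 5.38) and 5.00 to 6.27 (median 5.28) in tumors, with overlap in both. It fell by 0.97 ± 0.17 (adjusted p = 2.9e-06) and 1.02 ± 0.16 (adjusted p = 4.78e-07), and both calls were lost with the smooth muscle covariate (-0.60, adjusted p = 0.345, and -0.66, adjusted p = 0.238). After AOM+DSS it rose by 0.52 ± 0.16 in fl/fl mice (adjusted p = 0.0137), and the knockout change of 0.37 ± 0.16 (adjusted p = 0.0768) passed without knockout untreated replicate 2 (0.46, adjusted p = 0.0182). Abcd3, which imports branched fatty acids into peroxisomes, and Abcd4, a lysosomal vitamin B12 transporter, passed in none of the 4 comparisons.

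Abcb6, linked to porphyrin transport, fell after AOM+DSS by 0.34 ± 0.10 (adjusted p = 0.0108) and 0.47 ± 0.10 (adjusted p = 0.000213) and in fl/fl tumors by 0.30 ± 0.11 (adjusted p = 0.0223). With the squamous covariate its fl/fl call after AOM+DSS was lost (-0.22, adjusted p = 0.143). Abcb10, a mitochondrial member needed for heme synthesis, fell in tumors by 0.22 ± 0.060 and 0.25 ± 0.058. Abcb8, another mitochondrial member, rose in knockout tumors by 0.47 ± 0.090 (adjusted p = 1.52e-05), and its fl/fl change was 0.21 ± 0.093 (adjusted p = 0.062). Abcb9, a lysosomal peptide transporter, rose in knockout tumors by 0.20 ± 0.079, and Abcb5 passed in none of the 4.

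Of the 4 soluble ABC proteins 2 rose after AOM+DSS in fl/fl mice, and in knockout mice 3 rose and 1 fell. In tumors 2 rose in fl/fl and 3 in knockout mice. The shares of all genes that passed were 22.7% and 30.2% after AOM+DSS and 41.2% and 42.9% in tumors. Abcf2, which sits on ribosomes, lay at 9.60 to 9.94 (median 9.78) and 9.57 to 9.97 (median 9.71) in tumors, above all AOM+DSS colon samples (8.95 to 9.29 and 8.89 to 9.28). It rose in tumors by 0.68 ± 0.059 (adjusted p = 1.3e-14) and 0.66 ± 0.057 (adjusted p = 1.31e-14) and after AOM+DSS by 0.18 ± 0.056 and 0.26 ± 0.056. Its fl/fl call after AOM+DSS was lost when the arrays were quantile normalized again (0.12, adjusted p = 0.122). Abce1, which splits ribosomes after termination, lay at 11.39 to 11.73 and 11.61 to 11.86 in tumors against 10.87 to 11.41 and 11.10 to 11.59 in AOM+DSS colon, without overlap in knockout mice alone. It rose by 0.46 ± 0.066 (adjusted p = 3.86e-08) and 0.50 ± 0.064 (adjusted p = 1.82e-09). With the smooth muscle covariate the tumor calls of both genes were lost, at 0.26 and 0.25 for Abcf2 (adjusted p = 0.109 and 0.106) and at 0.17 and 0.21 for Abce1 (adjusted p = 0.534 and 0.33). Abcf1, which binds an initiation factor of translation, rose by 0.14 ± 0.052 and 0.16 ± 0.052 after AOM+DSS and by 0.14 ± 0.054 in knockout tumors. The Abcf1 call after AOM+DSS in fl/fl mice was lost without fl/fl AOM+DSS replicate 7 (0.13, adjusted p = 0.0771). It was also lost without knockout AOM+DSS replicate 10 (0.14, adjusted p = 0.0506). With arrays shifted to the same median over the genes it was lost in both genotypes. Abcf3, a related cytosolic protein, fell after AOM+DSS in knockout mice by 0.18 ± 0.047. All 9 proliferation markers measured rose in tumors, with a mean per array of 9.08 to 9.54 and 9.30 to 9.67 against 8.01 to 8.92 and 8.30 to 9.06 in AOM+DSS colon, and their part in the rise of Abce1 and Abcf2 was not tested.

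ABC proteins named outside the Abc pattern and partners of the family were measured for 35 of the 40 genes listed. Cftr, a chloride channel of the ABCC subfamily, fell after AOM+DSS by 0.51 ± 0.13 and 0.49 ± 0.13 and in tumors by 1.43 ± 0.13 (adjusted p = 1.3e-13) and 1.36 ± 0.13 (adjusted p = 2.43e-13). Its levels were 7.59 to 9.29 and 7.79 to 8.81 in tumors against 9.48 to 10.23 and 9.26 to 10.02 in AOM+DSS colon, with no overlap. Tap1, an ABCB subunit that feeds peptides to class I molecules, rose after AOM+DSS by 0.95 ± 0.22 and 0.80 ± 0.22, as did 4 of 5 peptide loading partners in each genotype. Of these, Tapbpl, a chaperone of that complex, was up by 0.73 ± 0.11 in fl/fl mice, and its rise passed in knockout mice too. Apoe, which accepts lipid from Abca1, rose after AOM+DSS by 0.50 ± 0.067 and 0.72 ± 0.067. Fabp6, an ileal bile acid binding protein, rose after AOM+DSS in fl/fl mice by 0.68 ± 0.25 and was lower in tumors, with changes of -1.56 ± 0.27 and -1.20 ± 0.26. Its tumor calls were lost with the smooth muscle covariate (-1.16, adjusted p = 0.212, and -0.81, adjusted p = 0.404). The fl/fl rise was lost with the squamous covariate (0.64, adjusted p = 0.111).

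Of 15 nuclear receptors and other regulators of the family, 3 rose in tumors of both genotypes (Ahr, Srebf1 and Srebf2) and 10 fell in both, with medians of -0.51 and -0.42. After AOM+DSS 2 rose and 2 fell in fl/fl mice, and 2 rose and 5 fell in knockout mice. Of all genes 17.2% rose and 17% fell in tumors of both genotypes, and 22.7% and 30.2% passed after AOM+DSS. Nr1i2, the xenobiotic receptor PXR, fell after AOM+DSS by 0.46 ± 0.11 and 0.55 ± 0.11 and in tumors by 1.01 ± 0.12 and 0.90 ± 0.11. Vdr, the vitamin D receptor, fell in tumors by 1.64 ± 0.10 (adjusted p = 4.2e-20) and 1.54 ± 0.10 (adjusted p = 1.42e-19), from 11.20 to 11.85 and 11.08 to 11.73 to 9.49 to 10.42 and 9.44 to 10.37. Nr1h4, the bile acid receptor FXR, fell by 1.01 ± 0.12 and 1.33 ± 0.12, and Nr1i3, the receptor CAR, by 0.67 ± 0.11 and 0.67 ± 0.10. Nr1h3, the oxysterol receptor LXR alpha, fell in tumors by 0.58 ± 0.089 and 0.38 ± 0.086, and Hnf4a, a regulator of epithelial differentiation, by 0.58 ± 0.070 and 0.59 ± 0.068. With the smooth muscle covariate the tumor calls of Nr1i2 were lost (-0.65, adjusted p = 0.0687, and -0.56, adjusted p = 0.116). So were those of Nr1i3 (-0.48 in both, adjusted p = 0.197 and 0.166) and that of Hnf4a in fl/fl mice (-0.41, adjusted p = 0.0573). Of the fatty acid receptors, Ppard fell in tumors by 0.76 ± 0.099 and 0.69 ± 0.096 and in knockout mice after AOM+DSS by 0.60 ± 0.094. Ppara fell by 0.51 ± 0.088 in fl/fl tumors and by 0.52 ± 0.083 after AOM+DSS in knockout mice, and Pparg by 0.67 ± 0.12 in knockout tumors. Falls also passed for Ppara in knockout tumors, for Pparg in fl/fl tumors and for Ppard after AOM+DSS in fl/fl mice. The Pparg call in knockout tumors was lost with the smooth muscle covariate (-0.48, adjusted p = 0.258). Hif1a, the hypoxia factor, rose after AOM+DSS in knockout mice by 0.70 ± 0.087, and its rise passed in fl/fl mice too.

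Loss of epithelial Insr was compared in each condition. In limma no member passed between knockout and fl/fl mice in untreated colon (0.00451% of all genes passed) or in tumors (0.00902%), with 5 and 4 of the 48 at an unadjusted p under 0.05. The members with the smallest p in untreated colon were Abcg5 (-0.72 ± 0.18, adjusted p = 0.355), Abcd3 (-0.14 ± 0.056, adjusted p = 0.788) and Abca16 (-0.16 ± 0.063, adjusted p = 0.788). Abcg5 lay at 6.14 to 8.32 (median 7.73) in knockout and 7.97 to 8.60 (median 8.38) in fl/fl untreated colon, with overlap. Its difference was -0.55 ± 0.16 without knockout untreated replicate 2 (adjusted p = 0.53). In tumors the smallest p values belonged to Abcc3 (-0.31 ± 0.11), Abcc5 (-0.20 ± 0.079) and Abca16 (-0.17 ± 0.069).

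After AOM+DSS Abca1 alone passed, against 0.541% of all genes, with 9 members at an unadjusted p under 0.05. It was higher in knockout colon by 0.52 ± 0.099 (adjusted p = 0.00782, 1.43-fold), at 8.61 to 9.30 against 7.89 to 8.81, and the ranges overlapped. Fitted on the compared groups alone the difference did not pass (adjusted p = 0.102), and without the 5 arrays it was 0.58 ± 0.10 (adjusted p = 0.00287). The macrophage mean was 9.35 to 9.88 in knockout and 9.06 to 9.81 in fl/fl AOM+DSS colon, and its part in the difference was not tested.

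Whether the genotypes responded differently was tested as an interaction. None of the 48 members, and none of the 22180 genes, passed for the response to AOM+DSS or for the step from AOM+DSS colon to tumor in limma, with 3 and 4 members at an unadjusted p under 0.05. For the AOM+DSS response the smallest p values belonged to Abcb1b (0.48 ± 0.21, adjusted p = 0.803), Abcb11 (0.26 ± 0.11, adjusted p = 0.803) and Abca1 (0.28 ± 0.14, adjusted p = 0.812). For tumors they belonged to Abca1 (-0.61 ± 0.15, adjusted p = 0.22), Abcc5 (-0.30 ± 0.11, adjusted p = 0.561) and Abcg3 (-0.42 ± 0.16, adjusted p = 0.629). Members that passed in 1 genotype alone, such as Abcd2 after AOM+DSS in fl/fl mice or Abcb8 in knockout tumors, are therefore not shown to differ between genotypes.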

How the data were processed

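The authors deposited a log2 value for each probe set on each array. Per the submitters' processing notes RMA made them. The version of RMA is not given in the sources used here. RMA equalises the arrays, so a shift of all RNA cannot be seen, and changes of dim genes are compressed. RNA input was 250 ng per the labels. Of 41345 probe sets, 23521 carry 1 symbol, and the brightest set was taken for each of 22180 genes, with no filter on dim genes. Symbols of all 48 members matched RefSeq. Array medians were 5.923 to 6.039, and no pair of arrays correlated above 0.99447.

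A model of 6 group means over 57 arrays (limma 3.58.1, R 4.3.3, 51 residual degrees of freedom) gave 9 two-sided contrasts, with Benjamini-Hochberg adjustment over all genes at 0.05. It was tested on simulated data. Replicate numbers were not used to pair the samples, since the labels do not say what they mark. Named members were at most 7 rising and 7 falling members past the threshold in each treatment or tumor comparison, taken by size of change, those past it or the 3 with the smallest p per genotype contrast, and, by group, the others. Partners are named from a change of 0.5. Members, lists and rules were chosen with earlier results of these data known. Alternatives covered scaling, filter, probe sets, variance model, weights, samples fitted, replicate block, tissue covariates and arrays left out; the shift to the median of the genes, the arrays left out and the small-intestinal list were chosen after seeing the data. The number of arrays limits the precision.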

Additional observations from a re-analysis of the deposited data

Results flagged for a closer look

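Single arrays far from the rest of their group were looked for in 294 groups of values, the 48 ABC genes and Insr in each of 6 groups. Chance alone marks about 1 in 20 groups, and 27 were found. Knockout untreated replicate 2 accounts for several: Abca12 at 8.50, Abcb6 at 9.04, Abcb9 at 7.20, Abcc3 at 10.7 and Abcd2 at 6.91 were the highest of the group, and Abcc4 at 7.77 and Abcg5 at 6.14 the lowest. After AOM+DSS, fl/fl replicate 7 was highest for Abcc2 at 9.16 and Abcg8 at 8.82, and knockout replicate 10 for Abcc2 at 8.82 and Abcg8 at 8.58. These are the arrays with high small-intestinal transcripts. In fl/fl tumors Abcc2 was low in replicate 7, at 7.57.

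The others were scattered over genes and arrays. In fl/fl untreated colon Abcb11 at 4.80 and Abcc12 at 5.42 were high in replicate 4, and Abcb5 at 3.96 was low in replicate 1. In knockout untreated colon Abca14 at 5.34 was high in replicate 1, Abcf1 at 9.40 was high in replicate 3, and Abca17 at 4.71 was low there. After AOM+DSS Abca14 at 5.47 was high in fl/fl replicate 9, and in knockout mice Abca12 at 7.05 was high in replicate 5, Abca2 at 7.03 in replicate 8 and Abca7 at 7.79 in replicate 1. In knockout tumors Abca4 at 5.28 was high in replicate 3, Abcc1 at 9.37 in replicate 2 and Abcd2 at 6.27 in replicate 6, while Abca16 at 3.02 was low in replicate 1 and Abcd3 at 10.2 in replicate 5.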

How the results depend on the processing

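The counts of members past the threshold stayed within 1.5 times the reported ones except in 5 cases. With the squamous mean as a covariate 6 members in place of 13 passed after AOM+DSS in fl/fl mice (3321 in place of 5044 of all genes), and with the smooth muscle mean 10 passed in fl/fl and 11 in knockout tumors. Between genotypes after AOM+DSS 0 passed in limma when only the compared groups were fitted, with 10 at an unadjusted p under 0.05, and 2 passed with array weights (Abca1 and Abcb1b). Directions turned for 2 values in knockout tumors with the smooth muscle covariate, Abcg1 at -0.0050 and Abcf1 at -0.10; the cause was not tested. Leaving out 1 array that stood apart gave 12 to 14 and 18 members after AOM+DSS, 29 to 30 and 28 to 31 in tumors, and 0, 1 and 0 between genotypes. With the replicate number as a block 14 and 18 members passed after AOM+DSS and 29 and 30 in tumors. Of the called values Abcg5 alone lost its call under the block, in knockout tumors (-0.43, adjusted p = 0.0569). Deviations of same-numbered arrays correlated at -0.331 to 0.33, and 12 of 57 arrays correlated best with their own number. The highest mean was 0.096, between fl/fl and knockout tumors, with 5 of 8 pairs over 0.1. How many would do so by chance was not worked out, so these values do not settle whether the numbers pair the samples. The labels do not say that they do, and the numbers were not used as a pairing. The values for single genes kept their direction and call in 1649 cases and lost the call in 91. Dim probe sets limit what can be seen for Abcb11, Abca16 and Abcb5.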
